A study of Rattus norvegicus with 75 samples.

Results

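The glucocorticoid receptor gene Nr3c1 and 6 genes known to respond to the receptor (Tsc22d3, Fkbp5, Klf9, Zbtb16, Rasd1 and Errfi1) were followed through a study of lithium in rat kidney tubules. They were taken by symbol from a table of 32754 genes, in which the 7 symbols have 8 rows because Nr3c1 is listed under 2 Ensembl identifiers. Pieces of tubule were dissected by hand from kidneys of male Sprague-Dawley rats of 120 to 160 g fed chow without lithium (control) or chow holding lithium chloride, 40 mM in each kg. The rats had 12 h of light and 12 h of dark. The cortical collecting duct (CCD) is made of principal cells, which reabsorb water and sodium, and of intercalated cells, which move acid and base. It was sampled at 12 h (3 control and 2 lithium libraries), 24 h (3 and 3), 36 h (3 and 3) and 72 h (17 and 19). The cTAL, the thick ascending limb in the cortex, reabsorbs salt but not water and was sampled at 72 h (12 control and 10 lithium libraries). That gives 10 groups and 75 libraries of polyadenylated RNA. Values are TPM, a unit of transcript abundance that is scaled to transcript length and to the library total.

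The glucocorticoid receptor waits in the cytoplasm in a complex with heat-shock proteins. Corticosterone, the main glucocorticoid of the rat, binds it, and the receptor then enters the nucleus and switches genes on or off at glucocorticoid response elements. In the collecting duct the enzyme Hsd11b2 inactivates corticosterone, which leaves the related mineralocorticoid receptor (Nr3c2) open to aldosterone. Among the response genes, Fkbp5 encodes a co-chaperone that lowers the receptor's affinity for hormone, and Tsc22d3 (also called Gilz) encodes a leucine zipper protein that restrains inflammatory signalling. Klf9 and Zbtb16 encode DNA-binding zinc finger proteins. Rasd1 encodes a small Ras-like GTPase first found as a dexamethasone-induced transcript, and Errfi1 (also called Mig6) encodes an inhibitor of the epidermal growth factor receptor.

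The dissection left clear segment signatures. The 12 listed principal cell markers, Aqp2 among them, summed to between 9910 and 23804 TPM over the CCD libraries and to between 873 and 1849 TPM over the cTAL libraries. The 9 thick limb markers in the table, Umod among them, summed to at least 52938 TPM in each cTAL library and to at most 1045 TPM in any CCD library. Between 10888 and 12411 genes reached 1 TPM in a library. The sequencing depth is unknown. At 72 h the libraries fall into sets: 4 genes that are no members (Pfdn6, Mrps10, H3f3c and Slc39a1) are each either high or low, and their combinations divide the control libraries into 4 sets and the lithium libraries into 4 sets, each of consecutive library numbers and each with CCD and cTAL libraries. Sets are numbered within a treatment. Control set 4 and lithium set 4 have the same combination, and control set 3 and lithium set 1 have another in common. Every group at 12, 24 or 36 h has 1 combination only. The labels do not say whether a set is 1 rat or which libraries came from separate rats, so p-values over libraries measure only the spread between these libraries. For this reason the calls of the member rows, and of other genes named for a lithium difference, are also given on set means, where a set counts once. An early group is then 1 value, and its spread is assumed to be that between the sets at 72 h in the limma fit.

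Promoter sequences were searched for the receptor's element just before the start of these genes. RefSeq (assembly GRCr8, a later build than the Rnor_6.0 of the expression values) gave 9 start sites for 6 of the 7 genes, without Zbtb16, and the 250 bases before each start were searched on both strands. The full glucocorticoid response element, a pair of AGAACA arms that face each other 3 bases apart, was in none of the 9, and 4 of 33469 rat promoters of that length held it (0.012%). A looser form of it, with arms of GNACA, was also in none of them (0.373% of promoters held it), nor was a lone AGAACA arm (17.5%). TGACG, the core of the cAMP response element, was in 4 of the 9 promoters, each of a different gene (18.2% of all promoters held it). It began 123 bases before the start of Rasd1, 79 before that of Klf9, 56 before that of Errfi1, and 75 and 65 before the third start of Tsc22d3. The 3 promoters below are those of the genes with the clearest differences between groups, with TGACG in capitals and each read 5′ to 3′ along the gene's strand. A match, or the lack of one, is a description of the letters only. At shares of 0.012% and 0.373%, the absence of the full and looser element from 9 promoters says nothing about these genes. Sequence further upstream or within the genes was not searched.
Rasd1, chr10:45267683-45267932, minus strand: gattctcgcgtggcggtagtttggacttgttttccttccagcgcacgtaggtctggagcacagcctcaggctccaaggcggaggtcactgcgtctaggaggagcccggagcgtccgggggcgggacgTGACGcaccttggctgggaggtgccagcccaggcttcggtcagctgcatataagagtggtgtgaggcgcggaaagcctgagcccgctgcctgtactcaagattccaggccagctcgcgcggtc
Tsc22d3, the third start, chrX:109010035-109010284, minus strand: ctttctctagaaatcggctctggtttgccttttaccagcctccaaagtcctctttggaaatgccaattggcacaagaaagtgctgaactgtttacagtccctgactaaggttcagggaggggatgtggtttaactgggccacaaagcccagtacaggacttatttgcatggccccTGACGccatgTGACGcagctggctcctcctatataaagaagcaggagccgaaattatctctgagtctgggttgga
Klf9, chr1:230126396-230126645, plus strand: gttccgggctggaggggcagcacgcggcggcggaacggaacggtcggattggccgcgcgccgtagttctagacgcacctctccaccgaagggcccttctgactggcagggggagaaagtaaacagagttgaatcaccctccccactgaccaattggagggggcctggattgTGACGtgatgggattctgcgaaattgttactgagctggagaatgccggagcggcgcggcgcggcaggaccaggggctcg

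In control rats at 72 h the receptor and most of its response genes were more abundant in cTAL than in CCD, while Rasd1 was far more abundant in CCD. Of the 8 rows, 7 passed limma's moderated test at a Benjamini-Hochberg adjusted p under 0.05 (a call, here and below), 1 higher and 6 lower in CCD, where 67.2% of all genes tested were called, 46.9% higher and 20.3% lower. Rasd1 ranged from 103 to 263 TPM in CCD (median 173, n = 17) and from 0.33 to 19.1 TPM in cTAL (median 5.11, n = 12). The lowest CCD control was above the highest cTAL control. The log2 difference was 4.59 (SE 0.27, adjusted p = 2e-23), on the log2(TPM + 1) scale used for all differences, which understates the change of low genes. Segments were dissected in bulk, so fewer cells of a type and less RNA per cell cannot be told apart.

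Tsc22d3 went the other way, from 60.1 to 109 TPM in CCD (median 89.1) and from 133 to 666 TPM in cTAL (median 385), again without overlap. The CCD minus cTAL difference was -2.004 (SE 0.24, adjusted p = 6.54e-11). Klf9 was likewise separated, at 7.67 to 22.9 TPM in CCD (median 17.2) and 25.1 to 79.1 TPM in cTAL (median 54.5), a difference of -1.59 (SE 0.18, adjusted p = 1.82e-11). Both genes were thus lower in every CCD control library than in any cTAL control library. The share of all genes whose controls separated by segment, as these and Rasd1 did, was not counted. Errfi1 was lower in CCD by a log2 difference of -1.35 (SE 0.19, adjusted p = 1.01e-08), with medians of 25.4 and 82.4 TPM and a range of 25.3 to 120 TPM in cTAL that overlapped the CCD range of 20.1 to 34.3 TPM. Zbtb16 was low in both segments, with medians of 3.59 TPM in CCD and 9.60 TPM in cTAL. Its difference of -1.13 (SE 0.33, adjusted p = 0.00256) was lost on set means (adjusted p = 0.15, with 0.000148 to 0.15 over the alternatives). Each control set holds libraries of both segments, and on set means with set as a block Zbtb16 was called (-1.19, adjusted p = 0.0176).

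The receptor itself differed by less than 1 on the log2(TPM + 1) scale in the main fit. The row ENSRNOG00000048800 of Nr3c1 had medians of 23.6 TPM in CCD and 46.5 TPM in cTAL, and the row ENSRNOG00000014096 had medians of 6.01 and 12.6 TPM. The differences were -0.93 (SE 0.15, adjusted p = 9.83e-08) and -0.88 (SE 0.13, adjusted p = 1.20e-08). Over the alternatives they reached -1.21 and -1.13. The level of either row is uncertain, because the rows may share reads that were divided between them. Fkbp5 was not called, with medians of 20.1 and 28.1 TPM and a difference of -0.31 (SE 0.20, adjusted p = 0.162). On set means 6 of the 8 rows were called, all but Zbtb16 and Fkbp5. With set as a block as well, Zbtb16 was called and Fkbp5 was not (adjusted p = 0.0176 and 0.162). With median-of-ratios scaling, which moves the median of all genes from 0.25 to 0.01, the Fkbp5 difference was -0.58 and was called (adjusted p = 0.00471), as it was without control set 3 (-0.59, adjusted p = 0.0152). In control CCD 11 of 12 immune markers (median difference -3.41) and all 9 endothelial markers tested (median -2.14) were also called lower than in cTAL. On set means 10 of the 12 and 8 of the 9 were called lower, and over libraries 20.3% of all genes tested were. The immune markers had summed medians of 205 TPM in CCD and 2960 TPM in cTAL, and the endothelial markers 61.5 and 433 TPM. The part of these markers in the member differences between segments was not tested.

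Control CCD was not level over time. The F test for a difference of controls between 12, 24, 36 and 72 h called 3 of the 8 rows, where 13.8% of all genes tested were called. Rasd1 was 191, 195 and 196 TPM at 12 h, 60.9, 60.9 and 77.4 TPM at 24 h, and 277, 296 and 306 TPM at 36 h, against a median of 173 TPM at 72 h. The 24 h controls were thus below every other control CCD library, and the 36 h controls were above every other. The range of group means was 2.13 (adjusted p = 1.76e-05). Zbtb16 was 0.08, 0.55 and 1.01 TPM at 12 h, 3.68, 4.60 and 5.02 TPM at 24 h, and 0, 0.16 and 0.22 TPM at 36 h. At 72 h Zbtb16 had a median of 3.59 TPM (0.24 to 6.72), and the range of group means was 2.27 (adjusted p = 0.000177). It was high at 24 h, when Rasd1 was low, and near 0 at 36 h, when Rasd1 was high. Tsc22d3 controls ran from 44.4 to 63.7 TPM at 12 and 36 h and from 78.3 to 83.4 TPM at 24 h. At 72 h they ran from 60.1 to 109 TPM (median 89.1), and the range of group means was 0.70 (adjusted p = 0.000153). Control means of Zbtb16, Tsc22d3, Fkbp5 and the Nr3c1 row ENSRNOG00000014096 were lower at 12 and 36 h than at 24 and 72 h. Fkbp5 (adjusted p = 0.484) and that Nr3c1 row (0.402) were not called. Rasd1 had the reverse order, and Klf9, Errfi1 and the other Nr3c1 row had neither.

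Each early control group is 1 set, and on set means none of the 3 was called (adjusted p = 0.256, 0.483 and 0.359 for Rasd1, Zbtb16 and Tsc22d3). Of 18 clock genes tested, 12 were called over the same times, and 0 on set means. Dbp, a clock output gene, had means of 38.9, 43.9, 28.5 and 120 TPM at 12, 24, 36 and 72 h (adjusted p = 4.90e-10, on set means 0.164). The 12 listed proximal tubule markers summed to between 424 and 1742 TPM in the 24 h controls and to between 24.3 and 410 TPM in the other control CCD libraries. The labels give no hour of dissection, so the phase of the light cycle at each time is not known. The part of that phase, of the clock genes and of these markers in the Rasd1, Zbtb16 and Tsc22d3 levels was not tested. Nor was the part of the phase in the lithium differences at these times.

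Rasd1 fell under lithium in CCD at 24, 36 and 72 h. At 12 h the lithium libraries had 199 and 214 TPM, just above the 3 controls, a difference of 0.09 (SE 0.12, adjusted p = 0.724). At 24 h they had 31.7, 32.4 and 40.7 TPM against at least 60.9 TPM in the controls, a difference of -0.91 (SE 0.10, adjusted p = 9.06e-06). At 36 h they had 59.0, 63.3 and 68.9 TPM against at least 277 TPM, a difference of -2.19 (SE 0.10, adjusted p = 4.53e-10). Lithium and control libraries did not overlap at either time. With 2 or 3 libraries in a group such separation, here and below, also occurred without a call, as for Rasd1 and Errfi1 at 12 h. Its share over all genes was not counted. At 72 h the 19 lithium libraries ranged from 25.4 to 109 TPM (median 41.2) and 18 of them were below all 17 controls (103 to 263 TPM). The difference was -1.92 (SE 0.14, adjusted p = 1.89e-14).

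On set means Rasd1 remained called at 72 h (-1.98, SE 0.20, adjusted p = 0.000159) and at 36 h (-2.19, adjusted p = 0.0136), and it was not called at 24 h (adjusted p = 0.422, with 4.62e-06 to 0.422 over the alternatives). At 72 h the lithium set means ran from 31.8 to 67.4 TPM and the control set means from 147 to 202 TPM. The lithium effect on Rasd1 differed over the 4 times by an F test, which called 4 of the 8 rows where 8.43% of all genes tested were called (range 2.27 for Rasd1, adjusted p = 0.000187, on set means 0.258). Mean Rasd1 under lithium was 207, 34.9, 63.7 and 45.6 TPM at 12, 24, 36 and 72 h, against 194, 66.4, 293 and 166 TPM in the controls. In CCD at 72 h all 8 endothelial markers tested were also called lower under lithium (median difference -0.86), as were 12 of 15 immediate early genes (median -0.85). Of all genes tested, 15.2% were called lower. On set means 3 of the 8 endothelial markers and 10 of the 15 immediate early genes were called lower. Summed medians of the endothelial markers were 61.5 TPM in controls and 30.9 TPM under lithium, and those of the immediate early genes 5346 and 1671 TPM. The part of either list in the Rasd1 level was not tested.

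**Figure D1:**
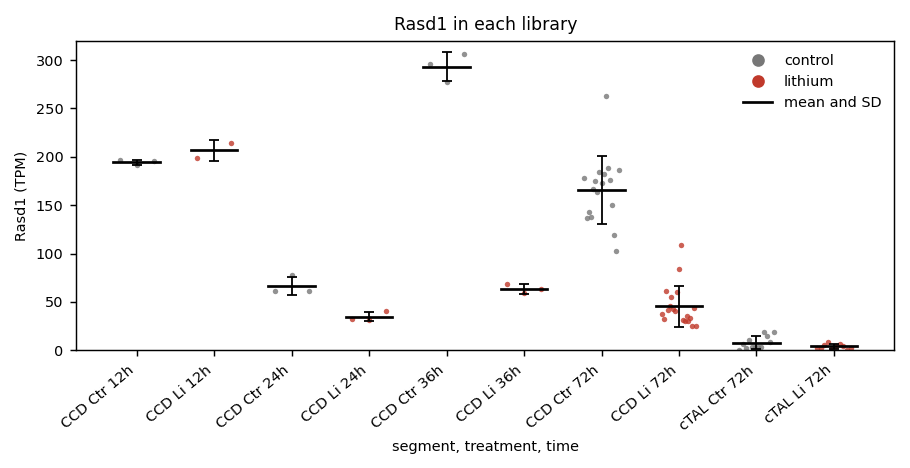
Rasd1 in TPM (vertical axis, from 0) in each library of the 10 groups, with group means and SD in black. Lithium libraries sit between 31.7 and 68.9 TPM at 24 and 36 h, below all controls of the same time, and cTAL libraries stay at or below 19.1 TPM.

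Klf9 was the only member row that was lower and called in CCD at all 4 times. The 12 h controls had 25.9, 26.2 and 26.7 TPM and the lithium libraries 11.8 and 11.9 TPM, a difference of -1.08 (SE 0.11, adjusted p = 1.57e-05). At 24 h the controls had 17.9, 18.9 and 19.9 TPM and the lithium libraries 10.1, 12.1 and 12.7 TPM, a difference of -0.66 (SE 0.10, adjusted p = 0.00016). At 36 h the controls had 15.2, 16.2 and 17.1 TPM and the lithium libraries 11.9, 12.8 and 13.0 TPM, a difference of -0.34 (SE 0.10, adjusted p = 0.0166). The groups did not overlap at these 3 times. The lithium group means of Klf9 were 11.9, 11.6 and 12.6 TPM at these times, and the control mean was highest at 12 h. At 72 h the ranges of 7.67 to 22.9 TPM in controls and 4.35 to 16.8 TPM under lithium (median 11.9) overlapped, and the difference was -0.63 (SE 0.15, adjusted p = 0.000939). On set means none of the 4 Klf9 differences was called (adjusted p = 0.555, 0.601, 0.764 and 0.0666 at 12, 24, 36 and 72 h), and at 36 h the call was also lost without the first control (adjusted p = 0.0642) or the third lithium library (0.0679).

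Tsc22d3 and Fkbp5 rose under lithium at 12 and 36 h and did not pass at 24 or 72 h. Tsc22d3 went from 54.5, 59.5 and 59.7 TPM to 88.2 and 90.4 TPM at 12 h (0.62, SE 0.13, adjusted p = 0.00568). At 36 h it went from 44.4, 50.7 and 63.7 TPM to 90.6, 102 and 112 TPM (0.93, SE 0.12, adjusted p = 1.29e-05). Every lithium library was above every control at both times, and also at 24 h (78.3 to 83.4 against 87.9 to 112 TPM), where the difference of 0.28 was not called (adjusted p = 0.0993). By 72 h the ranges were 60.1 to 109 TPM in controls and 63.5 to 114 TPM under lithium, a difference of -0.05 (SE 0.08, adjusted p = 0.624). The lithium group means stayed between 83.4 and 101 TPM over the 4 times. The control means were 57.9, 81.5, 52.9 and 87.0 TPM at 12, 24, 36 and 72 h.

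Fkbp5 rose from 12.7, 16.7 and 18.0 TPM to 24.6 and 29.6 TPM at 12 h (0.75, SE 0.15, adjusted p = 0.00458). At 36 h it rose from 12.9, 15.5 and 16.0 TPM to 20.8, 23.4 and 24.5 TPM (0.60, SE 0.14, adjusted p = 0.00335). At 24 h the lithium libraries, at 26.3 to 27.0 TPM, were all above the controls at 17.1 to 22.5 TPM, and the difference of 0.39 missed the threshold (adjusted p = 0.0524). At 72 h the difference was -0.28 (SE 0.13, adjusted p = 0.0848), and 8 of 19 lithium libraries were below all controls while 3 were above all of them. The lithium effect differed over time for Tsc22d3 (range 0.99, adjusted p = 0.000436) and for Fkbp5 (range 1.03, adjusted p = 0.0243). On set means neither F test was called (adjusted p = 0.436 and 0.809), nor were the rises, where Tsc22d3 at 36 h came closest (adjusted p = 0.0566). The Fkbp5 call at 12 h was also lost without the second lithium library (adjusted p = 0.0606).

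Zbtb16 changed direction between early times. At 12 h the lithium libraries had 3.27 and 3.78 TPM against 0.08, 0.55 and 1.01 TPM in controls, a rise of 1.59 (SE 0.27, adjusted p = 0.00117). At 24 h they had 0.85, 1.21 and 1.88 TPM against 3.68, 4.60 and 5.02 TPM, a difference of -1.25 (SE 0.24, adjusted p = 0.00141). The groups did not overlap at either time, nor at 36 h, where 0.33, 0.72 and 1.02 TPM under lithium stood against at most 0.22 TPM and the difference of 0.57 was not called (adjusted p = 0.0888). At 72 h Zbtb16 was not tested, since only 16 of 36 CCD libraries reached 1 TPM and 17 were needed. It ranged from 0.24 to 6.72 TPM in controls (median 3.59) and from 0 to 3.03 TPM under lithium (median 0.48). With no filter on low values the difference was -1.30 (SE 0.22, adjusted p = 1.81e-05), and on set means without that filter -1.21 (adjusted p = 0.171). The lithium effect over time had the widest range of the 7 genes, 2.89 (adjusted p = 0.000294, on set means 0.532). Neither early call stood on set means (adjusted p = 0.737 and 0.627). With a pseudocount of 0.1 the 24 h call was lost (-1.74, adjusted p = 0.0506) and the 36 h difference was called (1.86, adjusted p = 0.029).

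The receptor gene was not called before 72 h in the fit over libraries. Its row ENSRNOG00000048800 differed by 0.04, -0.43 and 0.14 at 12, 24 and 36 h, and its row ENSRNOG00000014096 by -0.09, -0.28 and 0.07. At 24 h the row ENSRNOG00000048800 was called lower with median-of-ratios scaling (-0.58, adjusted p = 0.0265) and without the first control (-0.63, adjusted p = 0.0294), and both rows were called lower with quantile normalization. At that time all 3 lithium libraries of the latter row, at 5.60 to 6.22 TPM, were below the controls at 6.23 to 8.49 TPM. At 72 h both rows were called lower under lithium, by -0.36 (SE 0.14, adjusted p = 0.0338) and -0.37 (SE 0.12, adjusted p = 0.0117). Medians went from 23.6 to 17.3 TPM and from 6.01 to 4.59 TPM with wide overlap. On set means neither Nr3c1 row was called (adjusted p = 0.224 and 0.178), and without control set 3, which had the highest control means of both rows in CCD, neither was called either (adjusted p = 0.211 and 0.107). The call of ENSRNOG00000048800 was also lost with no filter on low values (-0.36, adjusted p = 0.0643) and without control set 1 or 2 or lithium set 1 or 4 (adjusted p = 0.0976, 0.0992, 0.153 and 0.0781), and that of ENSRNOG00000014096 without lithium set 1 or 2 (0.0645 and 0.0515). Errfi1 was not called in CCD at any time. Its differences were -0.18, -0.10, 0.13 and -0.21, the last with ranges of 20.1 to 34.3 TPM in controls and 15.4 to 38.8 TPM under lithium (adjusted p = 0.0648).

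Counted together, the rows called in CCD were 3 higher and 1 lower of 8 at 12 h (10.4% of all genes tested were called, 7.1% higher), 3 lower of 8 at 24 h (23.6%), 2 higher and 2 lower of 8 at 36 h (32.2%), and 4 lower of 7 at 72 h (37.3%, with 22% higher and 15.2% lower). The share of all genes called lower was 3.3%, 5.3% and 8.5% at the 3 early times. On set means the counts were 0, 0, 1 and 1, with Rasd1 the row called at 36 and at 72 h. With the early groups fitted together with the 72 h groups, the early counts were 0, 0 and 2, the last being Rasd1 and Tsc22d3. At 24 h quantile normalization gave 5 rows lower, the 3 above and both Nr3c1 rows (adjusted p = 0.0142 and 0.0178).

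**Figure D2:**
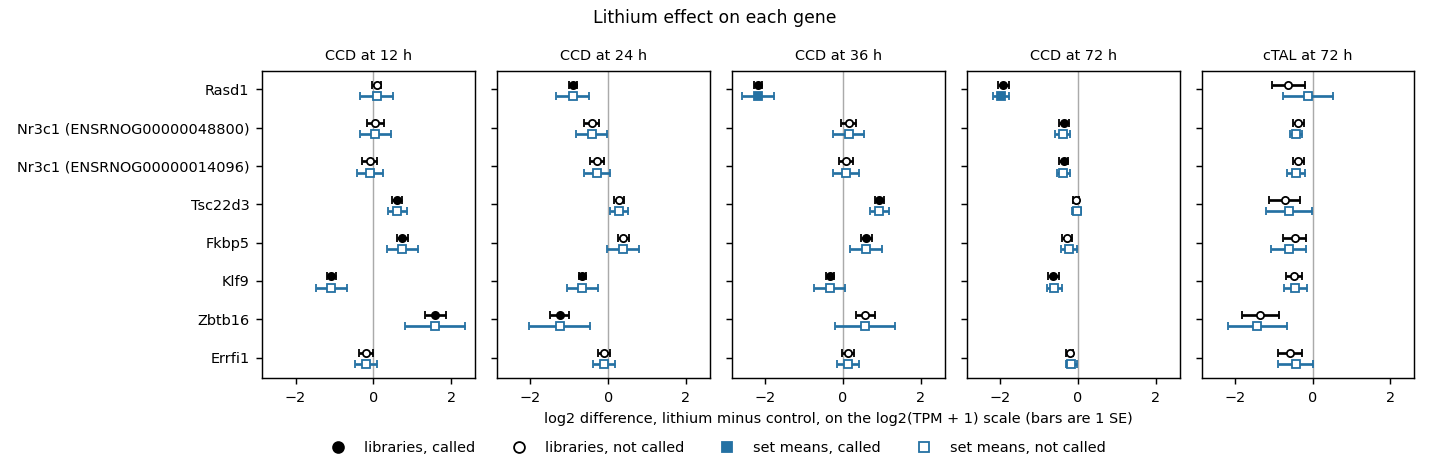
Lithium minus control on the log2(TPM + 1) scale (horizontal axis, bars 1 SE) for the 8 rows in the 5 comparisons, with circles for fits over libraries and squares for fits over set means, filled where called. Circles and squares lie close in CCD, the bars of the squares are wider, and the filled squares are Rasd1 at 36 and 72 h; Zbtb16 has no point in CCD at 72 h.

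In cTAL at 72 h none of the 8 rows was called by limma, where 0.701% of all genes tested were called, 0.59% lower. At an unadjusted p under 0.05 there were 4 rows, Zbtb16, Klf9 and both Nr3c1 rows, and on set means none of the 8 was called (adjusted p = 0.956 or above). All 8 estimates were below 0, from -0.37 for either Nr3c1 row to -1.34 (SE 0.48, adjusted p = 0.238) for Zbtb16. Tsc22d3 differed by -0.71 (SE 0.40, adjusted p = 0.471), with 68.8 to 558 TPM under lithium against 133 to 666 TPM. Rasd1 differed by -0.62 (SE 0.42, adjusted p = 0.547), with medians of 3.72 and 5.11 TPM. The lithium effect in CCD minus that in cTAL was called for Rasd1 only, at -1.30 (SE 0.39, adjusted p = 0.0128), where 15.3% of all genes tested were called, 3.44% lower. It was -1.86 on set means and was not called (adjusted p = 0.247, with 0.000101 to 0.247 over the alternatives). There control set 1, with 0.33 TPM of Rasd1 in its 1 cTAL library, counts as a full set. Without control set 3 the call was lost for Rasd1 (-0.995, adjusted p = 0.108) while Tsc22d3 (1.04, adjusted p = 0.0209) and Errfi1 (0.77, adjusted p = 0.0265) were called. The Rasd1 call was also lost without control set 2 (adjusted p = 0.0541) or lithium set 3 (0.088) and with a pseudocount of 0.1 (-1.14, adjusted p = 0.161), and Tsc22d3 was also called without lithium set 4 (1.16, adjusted p = 0.0101). In cTAL alone Zbtb16 was called without control set 3 (-1.94, adjusted p = 0.019).

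In cTAL the set means of Tsc22d3, Fkbp5, Zbtb16 and Errfi1 spread over a wider range than the lithium difference of the same gene. The same held for Klf9, Rasd1 and the Nr3c1 row ENSRNOG00000014096. In the row ENSRNOG00000048800 it held over control sets (0.51 against a difference of -0.368) and not over lithium sets (0.362). The share of all genes with such a spread, or with the division of sets below, was not counted. Mean Tsc22d3 in control sets 1 to 4 was 323, 384, 137 and 641 TPM, and in lithium sets 1 to 4 it was 124, 84.1, 360 and 534 TPM. Control set 3 and lithium sets 1 and 2 were thus low, and the 5 other sets were high. In cTAL control set 1 is 1 library, and lithium sets 1 and 3 are 2 each. For Tsc22d3 the libraries within a set stayed close together, at 133 to 142 TPM in control set 3 and 333 to 432 TPM in control set 2. Zbtb16 spread more, at 8.45 to 19.1 TPM in control set 4, as did Klf9, at 25.1 to 65.0 TPM in control set 2. Mean Zbtb16 followed the same division, with 12.5, 9.23, 1.38 and 14.6 TPM in the control sets and 0.04, 0.65, 5.56 and 7.46 TPM in the lithium sets. Mean Errfi1 was 61.3, 80.5, 28.8 and 110 TPM in the control sets and 31.2, 25.1, 87.8 and 67.2 TPM in the lithium sets. Low sets of Errfi1 were again control set 3 and lithium sets 1 and 2.

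Fkbp5 had the same 3 sets lowest, at 12.0, 10.8 and 9.97 TPM, against 18.7 to 46.2 TPM in the others. Klf9 divided the lithium sets alike (26.2, 23.1, 55.6 and 52.3 TPM), while control set 3, at 39.8 TPM, was lowest of 39.8 to 68.8 TPM. The range of set means of these 5 genes, on the log2 scale, was 0.78 to 2.66 over control sets and 1.22 to 3.01 over lithium sets. Sgk1, a kinase gene induced by both corticosteroid receptors and no member, had 171, 139, 33.9 and 143 TPM in the control sets and 49.5, 26.9, 229 and 126 TPM in the lithium sets. These sets were found from other genes, so the division is given as a description without a test. The 2 Nr3c1 rows did not divide this way. The row ENSRNOG00000048800 had its lowest set means in control set 4 and lithium set 4, and the row ENSRNOG00000014096 in control set 4 (11.4 TPM) and lithium set 2 (6.91 TPM). Nor did Rasd1, with 0.33, 5.97, 3.31 and 15.3 TPM in the control sets and 2.43, 5.80, 5.90 and 2.40 TPM in the lithium sets.

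In CCD the same sets did not divide all of these genes in this way. Mean Zbtb16 was 0.65 TPM in control set 3 and 3.30 to 4.99 TPM in the other control sets. Tsc22d3 was 74.9 TPM in control set 3, the lowest of the control sets, and 95.8 TPM in control set 4. Fkbp5 was also lowest there among the control sets (17.3 TPM), while Klf9 was highest in control set 3 (20.0 TPM) and Errfi1 was lowest in control set 1 (23.4 TPM). Lithium set 4 had the highest lithium means of Tsc22d3 (101 TPM), Fkbp5 (26.2 TPM), Klf9 (14.4 TPM), Zbtb16 (1.80 TPM) and Errfi1 (30.8 TPM). Without lithium set 4 the 72 h CCD differences of Fkbp5 (-0.46, adjusted p = 0.000906) and Errfi1 (-0.32, adjusted p = 0.000564) were called.

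Other measures also differed between sets. The cTAL libraries of control set 4 and lithium set 4 had 17155 and 17381 genes above 0 TPM on average, and the other cTAL sets 12483 to 14924. In CCD lithium set 4 had 17510, and the other sets 13893 to 15098. The 12 immune markers had summed medians of 4959 TPM in cTAL control set 4 and 2106 TPM in lithium set 4, 2298 to 2960 TPM in control sets 1 to 3 and 2394, 4409 and 4589 TPM in lithium sets 1 to 3. The 9 endothelial markers in the table had medians of 222, 453, 219 and 508 TPM in the control sets and 88.5, 271, 524 and 141 TPM in the lithium sets. Immediate early genes stood out in control set 4, with a mean of 133 TPM for Fos against at most 19.6 TPM in the other cTAL sets. The part of these measures in the division of Tsc22d3, Fkbp5, Zbtb16 and Errfi1 was not tested.

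**Figure D3:**
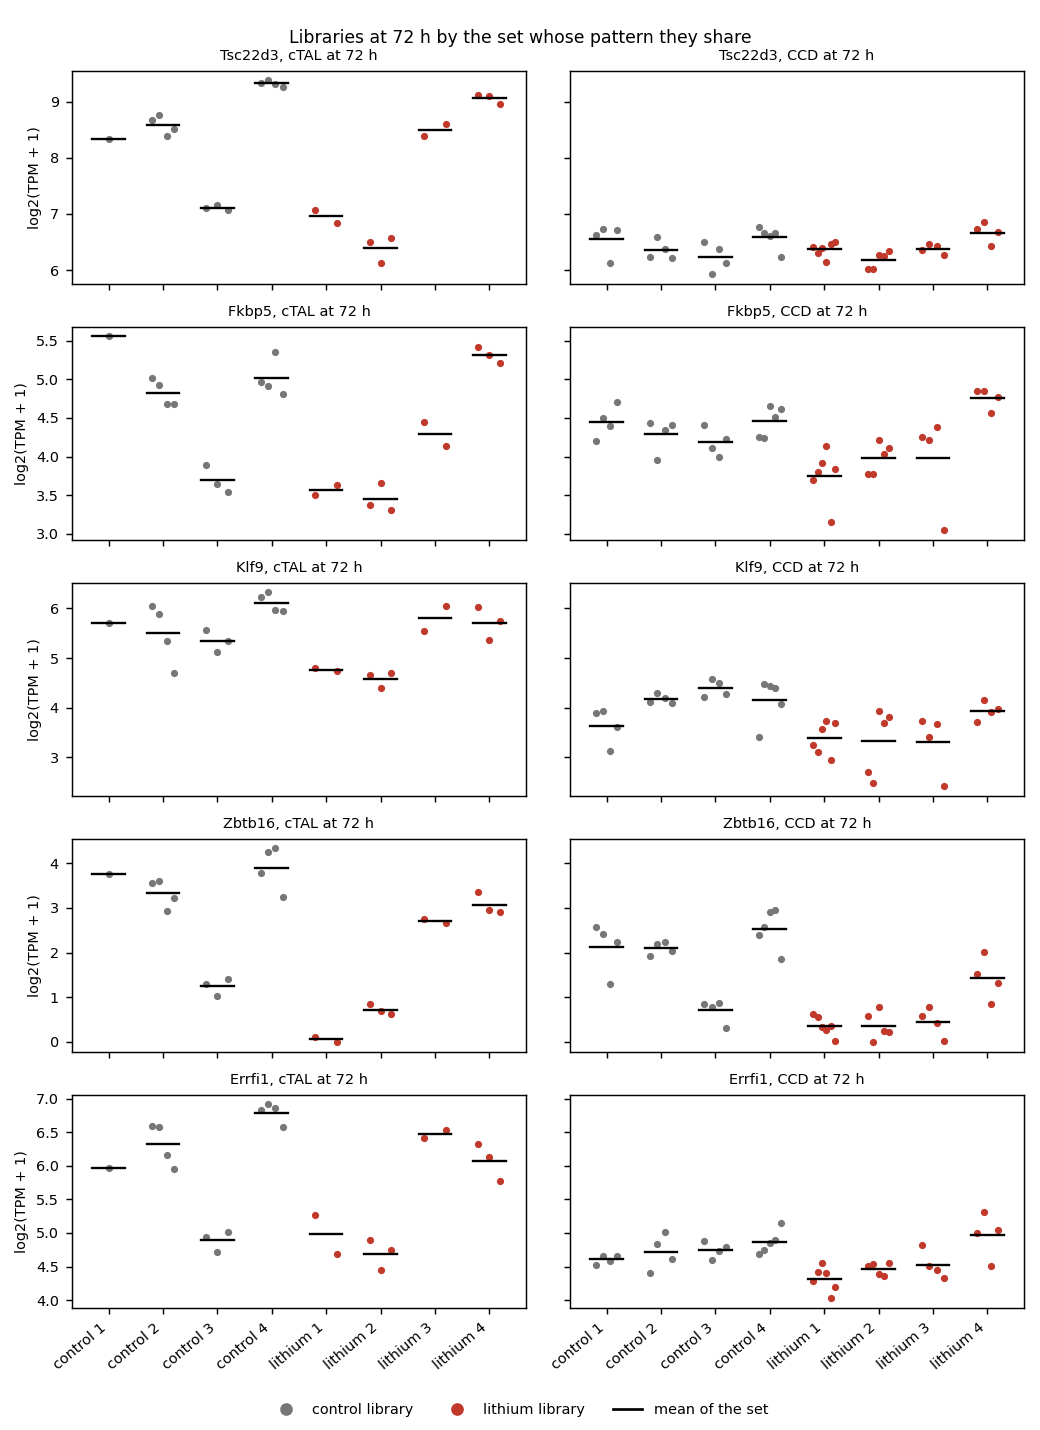
Libraries at 72 h by set (horizontal axis) in cTAL (left) and CCD (right), on a vertical axis of log2(TPM + 1), with the mean of each set in black. In cTAL, control set 3 and lithium sets 1 and 2 are the lowest for Tsc22d3, Fkbp5, Zbtb16 and Errfi1.

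Other genes of the receptor's pathway were read from lists, as counts of rows called. Of 6 genes that handle the hormone or its competing receptor, 4 were called in CCD at 72 h, 2 higher and 2 lower, where 22% of all genes tested were called higher and 15.2% lower. Hsd11b2 had a mean of 5441 TPM in controls and 2951 TPM under lithium at 36 h (-0.88, SE 0.09, adjusted p = 7.43e-07) and of 3792 and 3019 TPM at 72 h (-0.33, SE 0.05, adjusted p = 3.26e-06). At 24 h it was higher under lithium (0.29, adjusted p = 0.0209). Nr3c2, the mineralocorticoid receptor gene, was lower at 36 h (-0.52, adjusted p = 0.0114) and 72 h (-0.62, adjusted p = 0.000949). Abcb1a, which encodes an efflux pump that carries corticosteroids, rose from 0.06 to 3.58 TPM at 36 h (2.08, adjusted p = 8.37e-07). On set means Hsd11b2 was called at 36 h (adjusted p = 0.00909) and 72 h (0.0267) and not at 24 h (0.533). Nr3c2 was called at neither time on set means (0.579 and 0.0513), nor was Abcb1a at 36 h (0.0558). In CCD at 72 h 10 of 12 listed principal cell markers, with Hsd11b2 among the list, and 10 of 10 intercalated cell markers were also called lower. On set means 7 of the 12 and 7 of the 10 were called lower. The part of these markers in the lower Rasd1, Klf9, Nr3c1 and Hsd11b2 was not tested.

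Receptor chaperones were called higher in CCD for 5 of 12 genes at 24 h, 10 of 12 at 36 h and 5 of 12 at 72 h, with none lower at any time. The shares of all genes called higher at these times were 18.3%, 23.7% and 22%. On set means 0, 1 and 2 of the 12 were called higher. Their median difference at 36 h was 0.46, against 0.13 over all genes tested. Fkbp4, a co-chaperone that competes with the Fkbp5 protein for the receptor complex, rose by 0.76 at 36 h (SE 0.08, adjusted p = 1e-06, on set means 0.129) and was not called at 72 h (0.11, adjusted p = 0.258). Of 10 coregulators, 3 were called lower at 72 h, among them Ncor1 (-0.37, adjusted p = 0.0348, on set means 0.108), where 15.2% of all genes were called lower, 1 was called higher at 36 h, and none was called at 12 or 24 h. In cTAL none of the 12 chaperones and none of the 10 coregulators was called, where 0.701% of all genes were.

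Of the 28 other listed genes known to be induced by the receptor, some were called higher and some lower at each time. In CCD, 6 were higher and 1 lower of 25 tested at 12 h, 4 and 5 of 25 at 24 h, 8 and 7 of 25 at 36 h, and 4 and 13 of 23 at 72 h. The shares of all genes called higher and lower were 7.1% and 3.3%, 18.3% and 5.3%, 23.7% and 8.5%, and 22% and 15.2% at these times. On set means none of the listed genes was called at 12 h, 1 was higher and 1 lower at 24 h, 2 were higher and 0 lower at 36 h, and 2 were higher and 5 lower at 72 h. Their median difference at 72 h was -0.38, against -0.003 over all genes tested. Sgk1 was lower at 12 h (-1.11, adjusted p = 0.000957), 36 h (-1.46, adjusted p = 4.53e-06) and 72 h (-0.74, adjusted p = 2.21e-05). Dusp1, a phosphatase gene, was higher at 12 h (1.40, adjusted p = 0.000148) and 36 h (1.34, adjusted p = 1.29e-05) and lower at 72 h (-0.54, adjusted p = 0.00254). Per1, which also belongs to the clock, was higher at 12 h (0.86, adjusted p = 0.00551) and 36 h (0.77, adjusted p = 0.00162) and lower at 72 h (-0.42, adjusted p = 0.0243). Dusp1 and Per1 were thus higher at the 2 times at which Tsc22d3 and Fkbp5 were called higher. Clock genes also moved at these times, with 4 higher and 2 lower of 17 tested at 12 h and 11 and 4 of 17 at 36 h. On set means 0 clock genes were called at 12 h, and 1 was higher and 0 lower at 36 h. The part of the clock genes in these rises was not tested. On set means Dusp1 was called at 36 h (adjusted p = 0.0388) and 72 h (0.0427) and not at 12 h (0.225). Sgk1 was not called on set means at 12, 36 or 72 h (0.65, 0.132 and 0.0513), nor was Per1 (0.766, 0.445 and 0.264). In cTAL 1 of 25 was called, Angptl4 (-2.73, adjusted p = 0.0193), an inhibitor of lipoprotein lipase, where 0.701% of all genes tested were called, and on set means it was not called (adjusted p = 0.956).

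Patterns over the 8 CCD groups were compared by the Pearson correlation of mean log2(TPM + 1) over 9682 genes, as a description without a test, since the group means share libraries and a common scale. The genes named had the highest r of all 9682 over only 8 points. The highest r that unrelated genes would reach was not assessed, so these values do not show a shared pattern. Closest to Rasd1 were Alg11 (r = 0.958), Rpusd3 (0.946) and Dph6 (0.936), and closest to Klf9 were Gpd1l (0.983), Aass (0.980) and Mut (0.977). Tsc22d3 was closest to Kpna4 (0.964), the clock gene Per2 (0.962) and Pmm1 (0.942). Fkbp5 was closest to Aktip (0.979), Fam53c (0.976) and Adal (0.960), Zbtb16 to Fpgs (0.956), Nmb (0.915) and Pex2 (0.905), and Errfi1 to Kdm6b (0.967), B3gnt2 (0.953) and Wwox (0.941). The 2 Nr3c1 rows were closest to different genes, ENSRNOG00000048800 to Aim1 (0.961), Usp46 (0.961) and Uba6 (0.949), and ENSRNOG00000014096 to Tbc1d10a (0.934), Retsat (0.913) and Pgrmc1 (0.901).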

How the data were processed

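The deposited table gives TPM per gene and library, made by the authors with STAR 2.5.2b and RSEM 1.2.31 on Rnor_6.0, per the submitters' processing notes. Per the labels' protocols, cDNA came from a SMARTer V4 kit with 15 PCR cycles and libraries from a Nextera XT kit with 1 ng. This chemistry keeps no strand, so overlapping genes cannot be told apart. TPM keeps no depth, so no counting interval can be given. Libraries were grouped by their labels. From these values log2(TPM + 1) was fitted with limma 3.58.1 (R 4.3.3), with a mean-variance trend and two-sided tests adjusted by Benjamini-Hochberg over all genes tested. Genes entered with at least 1 TPM in as many libraries as the smallest group of the fit. The 72 h lithium comparisons used their own groups. The 6 early CCD groups were fitted together, as were the 4 groups of 72 h for the comparisons of segments and the 8 CCD groups for the F tests. The scripts were tested on simulated data. All 7 members were to be described, with up to 4 called genes of smallest p per pathway list and comparison, a short panel (Sgk1, Per1, Dusp1, Hsd11b1, Hsd11b2, Nr3c2, Fkbp4 and a few clock and immediate early genes) and the 3 genes most alike to each row. The members and lists were chosen with earlier results of these data known, and 160 of 165 listed symbols were in the table. Alternatives were another pseudocount, no filter, other scalings, left-out libraries or sets, set means, blocks and a joint fit of 8 groups. Figures were drawn with matplotlib 3.10.9.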

Additional observations from a re-analysis of the deposited data

Results flagged for a closer look

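The lithium effect on Rasd1 was called as different between CCD and cTAL at 72 h by limma's interaction term, at -1.30 (SE 0.39, adjusted p = 0.0128), and the difference was not called on set means (-1.86, adjusted p = 0.247). Its direction was the same in all 8 fits that left out a set, from -1.98 to -0.995, but these fits share most of their libraries. The call was lost without control set 2, control set 3 or lithium set 3 (adjusted p = 0.0541, 0.108 and 0.088).

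The lithium effect in CCD was called as different between 12, 24, 36 and 72 h by limma's F test for 4 genes. The range of effects was 2.89 for Zbtb16 (adjusted p = 0.000294), which was higher in 2 of 2 lithium libraries at 12 h and lower in 3 of 3 at 24 h than all controls of the time. It was 2.27 for Rasd1 (adjusted p = 0.000187), with no fall at 12 h and 3 of 3 libraries below all controls at 24 and 36 h. It was 1.03 for Fkbp5 (adjusted p = 0.0243) and 0.99 for Tsc22d3 (adjusted p = 0.000436), both above all controls at the 3 early times in every lithium library. None of the 4 was called on set means, where each early group counts as 1 value. Separation of groups this small was also seen without a call, as for Errfi1 at 12 h (limma, adjusted p = 0.576), and its share over all genes was not counted.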

How the results depend on the processing

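No member difference that was called reversed under any alternative run. On set means the genes called were 1759 of 4338 for CCD at 72 h, 0 of 82 for cTAL, 3 of 1352 at 12 h, 302 of 3074 at 24 h, 675 of 4189 at 36 h, 485 of 2000 for the difference between segments, 17 of 1189 for lithium over time and 16 of 1941 for control over time. The member rows called on set means were 1 at 72 h, 0 at 12 h, 0 at 24 h, 1 at 36 h, and 0 for the difference between segments and for both tests over time. With set as a block as well, the difference between segments had 546 genes and 0 member rows called. With the early groups in a fit of the 8 CCD groups, 274, 1259 and 1945 genes and 0, 0 and 2 member rows were called at 12, 24 and 36 h. In cTAL 31 genes were called without the filter. A pseudocount of 0.1 left 0 member rows in the difference between segments, and quantile normalization called 5 rows at 24 h.

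Leaving out a library or a set gave, in genes called, 969 to 1276 at 12 h, 2274 to 2609 at 24 h, 3188 to 3812 at 36 h, 3673 to 4578 for CCD and 1 to 223 for cTAL at 72 h, 1450 to 2159 for the difference between segments and 7622 to 8920 for the segments in controls. In member rows it gave 3 to 4 at each early time, 2 to 5 for CCD and 0 to 1 for cTAL at 72 h, 0 to 2 for the difference between segments and 7 to 8 for the segments in controls. At 24 h Fkbp5 was called without the third control (adjusted p = 0.0473), and at 72 h in CCD Fkbp5 and Errfi1 were called with median-of-ratios scaling (adjusted p = 0.0248 and 0.0144), and Errfi1 also without control set 1 (0.0431). The cause was not tested.

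Replicate numbers gave no clear pairing of the samples. Control and lithium libraries of the same number had a correlation over 0.1 in 1 of 2 pairs at 12 h, 1 of 3 at 24 h and 0 of 3 at 36 h. At 72 h 5 of 17 pairs had it in CCD and 3 of 10 in cTAL. Between segments 4 of 12 control and 3 of 10 lithium pairs had it. Groups of 2 or 3 are too small for this check to exclude a pairing. With the replicate number as a block, cTAL had 1 gene called, CCD at 72 h had 5 member rows (Fkbp5 and Errfi1 in, Nr3c1 ENSRNOG00000048800 out), and 24 h had 4. Median-of-ratios scaling moved the split of genes called higher and lower from 2385 and 689 to 1582 and 1435 at 24 h, from 3084 and 1105 to 2148 and 2004 at 36 h, from 923 and 429 to 795 and 683 at 12 h, from 13 and 69 to 21 and 54 in cTAL, from 1550 and 450 to 1109 and 857 between segments, and from 6133 and 2662 to 3779 and 3966 for the segments in controls. Quantile normalization moved it from 2564 and 1774 to 2431 and 2852 for CCD at 72 h. The median of all genes moved by over 0.1 at 24 and 36 h, from 0.13 to below 0. Depth is unknown in TPM, so no counting interval can be given for values of Zbtb16 near 0.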
